A study of Homo sapiens with 31 samples.

Results

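LoVo is a human colon adenocarcinoma line that was derived from a metastatic lesion, whereas LS1034, HT-29 and HCT116 came from primary tumours of the large bowel. The origins are background knowledge: the sample labels call all 4 lines adenocarcinoma and do not mention metastasis. The 3 LoVo libraries were compared with the mean of the 3 other lines, each line weighted equally, and with each line on its own. Of 31 samples in the series, 12 entered these comparisons, 3 from each line. Of 17113 genes in the count table, 13875 had enough counts to be tested, and 612 of them differed between LoVo and each of the 3 lines in the same direction: 317 were higher in LoVo and 295 were lower. A gene was called when its edgeR quasi-likelihood adjusted p was below 0.05 and its log2 fold change was at least 1 in size.

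The labels give all 4 lines as WT, with no treatment (NA), and all were grown in RPMI-1640 or DMEM with 10% fetal bovine serum. The labels place LoVo, HT-29 and HCT116 in the large intestine and colon, and LS1034 in the cecum. The series also holds 3 libraries of CCD841CoN, labelled normal colon, and mixtures of RNA from each cancer line with CCD841CoN, of which those with 50% and 10% cancer RNA are used below. Total RNA depleted of ribosomal RNA was sequenced. LoVo is the only line of metastatic origin, so that origin and every other property of this line cannot be told apart. Whether the 3 libraries of each line are separate cultures is not stated in the labels, and p-values therefore measure only the spread between these libraries, which may be technical. In bulk RNA such as this, fewer cells of a type and less RNA per cell cannot be told apart.

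The lining of the colon renews from stem cells at the crypt base, which carry the R-spondin receptor LGR5. Their progeny become absorptive cells or secretory cells that make mucins and small secreted peptides. To spread, carcinoma cells have to detach, cross basement membrane and other matrix, and survive in a foreign tissue, and genes have been described as promoting or suppressing those steps in many models.

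The 12 libraries held 10800329 to 37418506 counts, the 3 of LoVo 12543986 to 37418506, and mitochondrial genes took 0.113 to 1.29% of the counts. LoVo libraries correlated with each other at r = 0.948 to 0.961 across genes and with libraries of the other lines at 0.772 to 0.834; genes are not independent replicates. Summed over 8 colonic epithelial markers, LoVo had 7896 to 12158 CPM, the read count scaled to the effective library size, and CCD841CoN 294 to 388. The LoVo sum lay below those of LS1034 (12587 to 17333) and HT-29 (14318 to 26903) and above that of HCT116 (3045 to 5714). Summed over 8 fibroblast markers, LoVo had 2.46 to 11.1 CPM, the 3 other cancer lines 5.47 to 29.5, and CCD841CoN 29921 to 35363. None of the fibroblast markers tested was called between LoVo and the mean of the other lines. CCD841CoN thus had a lower epithelial and a higher fibroblast marker sum than every cancer line, which its label as normal colon does not mention.

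Against the mean of the 3 lines, 1775 genes were higher in LoVo (12.8% of those tested) and 1133 were lower (8.17%). The single comparisons called 1799 higher (13.0%) and 1695 lower (12.2%) against LS1034, 1806 higher (13.0%) and 1802 lower (13.0%) against HT-29, and 1623 higher (11.7%) and 1264 lower (9.11%) against HCT116. The 317 genes higher than each line make up 2.28% of those tested and the 295 lower ones 2.13%. These comparisons share the LoVo libraries. All 612 genes were also called against the mean, which uses the same values and is no separate support. The same rule applied to the other lines gave 1017 genes for LS1034, 833 for HT-29 and 1157 for HCT116, so LoVo had the fewest of the 4 lines. Across all tested genes, 720 (5.19%) had all 3 LoVo libraries above the 9 others and 501 (3.61%) had all 3 below. The rule selects such genes, and 306 of its 317 higher genes and 271 of its 295 lower genes had no overlap.

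**Figure D1:**
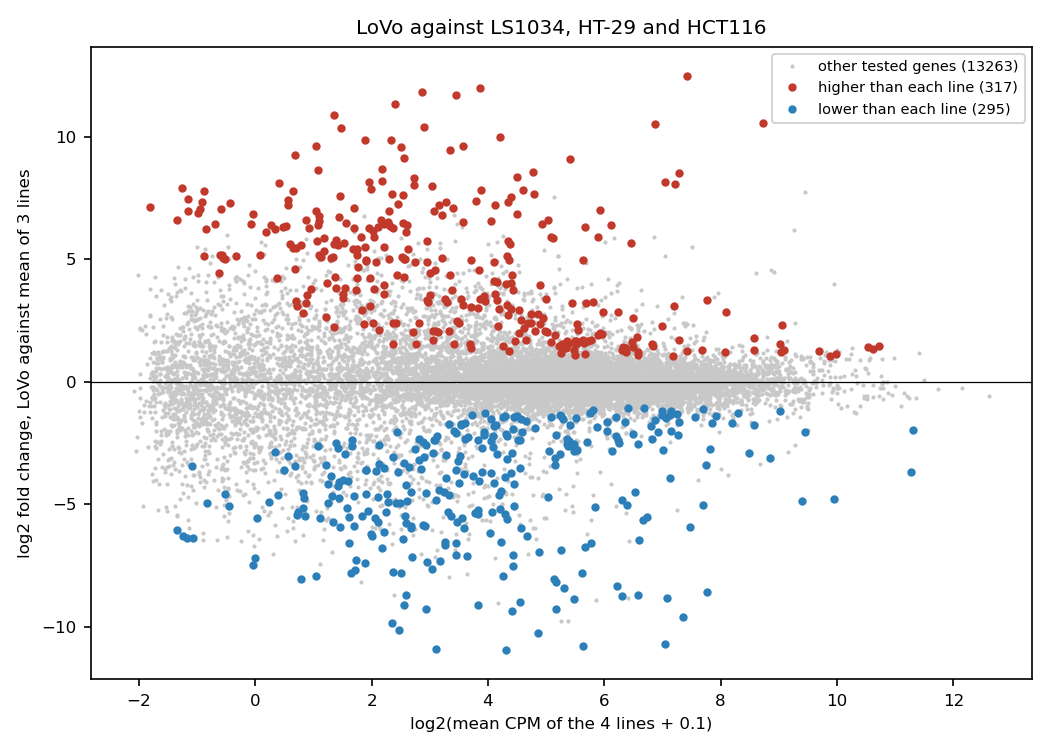
Log2 fold change of each tested gene, LoVo against the mean of the 3 other lines (y axis), by the mean level of the 4 lines as log2 of CPM plus 0.1 (x axis). Red points are the 317 genes higher than each line, blue points the 295 lower, and grey points the other tested genes. For genes without a count in a line the fitted value depends on the prior count and is no measured size.

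Many of these differences were between a gene that was read and one that was barely read. Of the 317 higher genes, 117 had a mean below 1 CPM in each of the 3 other lines, and 238 reached 10 CPM in LoVo. Of the 295 lower genes, 162 had a mean below 1 CPM in LoVo, and 15 had no count in any LoVo library. The median log2 fold change against the mean was 4.58 for the higher genes (quartiles 2.35 and 6.49) and -4.0 for the lower genes (quartiles -5.81 and -2.39), beside 0.03 over all tested genes. The genes just inside the rule were CEP83 and CHRNB1, whose largest adjusted p over the 3 lines was 0.0499 for both, and those just outside were SULT1A1 (0.0504) and NKD2 (0.0507). When each of the 12 libraries was left out in turn, 172 of the 317 and 178 of the 295 kept all 3 calls in every fit.

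**Figure D2:**
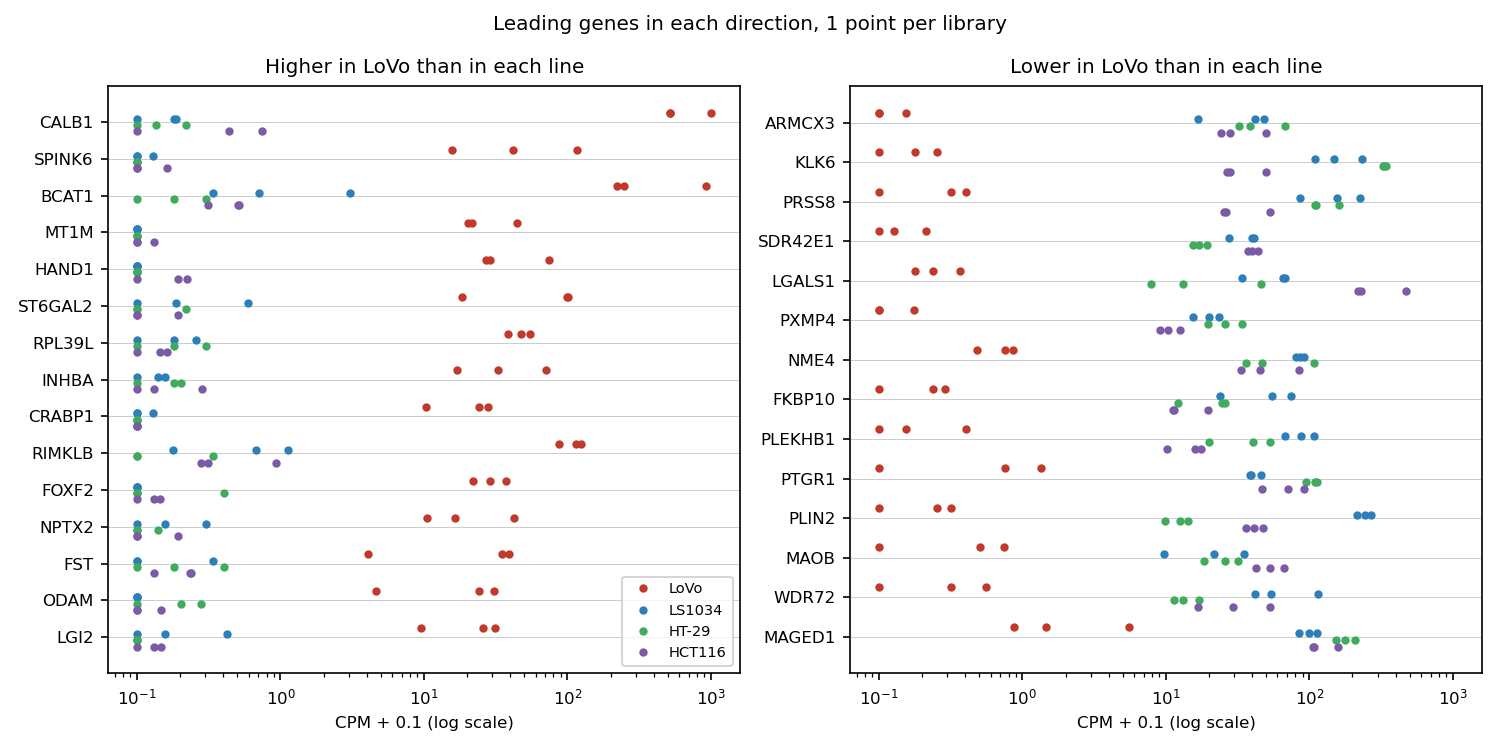
CPM plus 0.1 on a log axis in each library, for the 15 genes in each direction that lead when ranked by their smallest ratio to any other line, with 1 lower gene not shown. Red points are the 3 LoVo libraries, blue LS1034, green HT-29 and purple HCT116; the LoVo points do not overlap those of any other line in any gene plotted, which the choice of these genes required.

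The leading genes in both directions were named by a rule that asks for no overlap between LoVo and the other lines, so their lack of overlap is a description. The leading higher genes include several that are usually read in other tissues. CALB1, a calcium-binding protein best known from neurons and kidney, had 1008, 522 and 517 CPM in the LoVo libraries and 0 to 0.641 CPM (median 0.0818) in the 9 others. No LoVo library came near the highest other library, and the fold over HCT116, the closest line, was 2097 (log2 fold change against the mean 12.49 ± 0.51 SE, adjusted p = 2.79e-09). BCAT1, the cytosolic enzyme that starts the breakdown of branched-chain amino acids, had 926, 248 and 221 CPM in LoVo and 0 to 2.94 CPM (median 0.236) elsewhere (10.52 ± 0.63, adjusted p = 7.14e-08). RIMKLB, an enzyme that joins glutamate to other amino acids, had 114, 123 and 87 CPM against 0 to 1.02 CPM (median 0.214).

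Transcription factors and developmental genes were also among them. HAND1, a basic helix-loop-helix factor of heart and placenta development, had 28.8, 27.1 and 73.9 CPM in LoVo and no count in LS1034 or HT-29, and the fold over HCT116 was 607. FOXF2, a forkhead factor of gut mesenchyme, had 28.7, 37.4 and 21.7 CPM in LoVo and 0 to 0.307 CPM (median 0) in the others, while CCD841CoN had 94.7 ± 7.69 CPM (SD, n = 3). The fold of FOXF2 over HT-29 was 613, with a 95% counting interval of 209.8 to 2973, since HT-29 gave 3 counts in all. Where a group had 1 to 3 counts, its level in such a ratio is the pooled count over the summed library sizes. CRABP1, a retinoic acid binding protein, had 10.2, 24.1 and 28 CPM in LoVo and a single count in LS1034. These 3 genes were close to unread in every other cancer library.

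INHBA encodes the subunit of activin A, and FST encodes follistatin, which binds and blocks activin. INHBA had 33, 16.8 and 70.3 CPM in LoVo and 0 to 0.183 CPM (median 0.0409) in the other cancer lines, and FST had 3.95, 39 and 34.9 against 0 to 0.307 CPM (median 0.080). CCD841CoN had 37.2 ± 3.90 CPM of INHBA and 141 ± 57.0 CPM of FST (SD, n = 3), the latter above every LoVo library. The adjusted p against the mean was 1.15e-07 for INHBA and 4.83e-06 for FST. The lowest LoVo value for FST came from replicate 1.

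The other leading higher genes had varied roles. SPINK6, a secreted serine protease inhibitor, had 15.6, 117 and 42 CPM in LoVo against 0 to 0.0611 elsewhere. MT1M, a metal-binding metallothionein, had 20.1, 44.4 and 21.4 CPM in LoVo and 1 count in the 9 others, from HCT116, where the ratio was 2197 (95% counting interval 394 to 86761). ST6GAL2, which adds sialic acid to galactose, had 99.6, 101 and 18.2 CPM against 0 to 0.491 CPM (median 0). RPL39L, a ribosomal protein paralogue best known from testis, had 38.2, 47.7 and 54.6 CPM against 0 to 0.205 CPM (median 0.0611), and CCD841CoN had 17.6 CPM on average. Counts of such paralogues can be split by the authors' counting and are uncertain. NPTX2, LGI2 and ODAM, secreted proteins of synapses, neurons and enamel, had 10.4 to 42.3, 9.40 to 31.4 and 4.53 to 30.6 CPM in LoVo and at most 0.204, 0.327 and 0.179 CPM in any other cancer library. All 15 leading higher genes kept their calls in all 20 alternatives.

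The leading lower genes, each at 10 CPM or more in every other line, included proteases. KLK6, a secreted kallikrein protease, had 0, 0.152 and 0.077 CPM in LoVo and 26.6 to 339.8 CPM (median 148) in the 9 others (-10.72 ± 0.65, adjusted p = 7.99e-08). PRSS8 is prostasin, a membrane-anchored serine protease of epithelia that activates sodium channels, and it had 0.218, 0.304 and 0 CPM in LoVo against 25.5 to 225 CPM (median 109). Of the 13 tested kallikrein genes, a family counted after the values of KLK6 had been seen, 8 were lower than the mean (61.5%, beside 8.17% of all tested genes; median log2 fold change -3.72, beside 0.03), and 2, KLK6 and KLK7, were lower than each line (15.4%, beside 2.13%). These counts include KLK6 itself. Against HCT116 alone 2 were higher and 5 lower, against LS1034 0 and 8, and against HT-29 0 and 7.

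LGALS1 encodes galectin-1, a secreted lectin, and its level was 0.136, 0.266 and 0.077 CPM in LoVo against 33.8 to 67.5 in LS1034, 7.77 to 45.8 in HT-29 and 217 to 473 in HCT116, with 3798 CPM on average in CCD841CoN. FKBP10, a collagen chaperone of the endoplasmic reticulum, had 0.136, 0.19 and 0 CPM against 11 to 74.5 CPM (median 23.8). PLIN2, which coats lipid droplets, had 0.218, 0.152 and 0 CPM in LoVo, 214 to 271 in LS1034, 9.72 to 14.1 in HT-29 and 36.3 to 47.2 in HCT116. The levels of the 3 other lines covered a wide range, and LoVo lay below all of them.

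Several metabolic enzymes were lower in LoVo than in each line. MAOB, a mitochondrial monoamine oxidase, had 0.409, 0.647 and 0 CPM against 9.53 to 66.2 CPM (median 31.7), and PTGR1, which inactivates leukotrienes and reactive alkenals, had 0.654, 1.26 and 0 against 38.4 to 113 CPM (median 71.2). NME4, the mitochondrial nucleoside diphosphate kinase, had 0.654, 0.761 and 0.385 CPM against 33.2 to 107 CPM (median 80.6), which is 90.4-fold lower than HCT116. PXMP4, a peroxisomal membrane protein, had 2 counts in LoVo in all, a ratio of HCT116 to LoVo of 403 with a 95% counting interval of 111 to 3324. SDR42E1, PLEKHB1 and WDR72 also had means under 1 CPM in LoVo. The X-linked genes ARMCX3 and MAGED1 had 0.0545, 0 and 0 and 1.36, 5.4 and 0.77 CPM in LoVo against 16.6 to 67.6 CPM (median 38.7) and 85.1 to 208 CPM (median 113). All 15 leading lower genes kept their calls in all 20 alternatives.

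Gene lists are described by their counts of genes called against the mean, the median log2 fold change and the share of the list called in either direction. The test called 21.0% of all genes it covered (12.8% higher and 8.17% lower), whose median was 0.03, and each list is to be read beside these values. The lists were chosen with earlier results known, and no list was tested against other genes. Against lists of genes described as promoting or suppressing metastasis, calls went in both directions. Of 36 tested genes described as promoting it, 7 were higher and 7 lower in LoVo than the mean (38.9% called, beside 21.0% of all tested genes, median -0.53). Only S100A4 and MMP7 of that list differed from each line, and both were lower in LoVo. S100A4, a calcium-binding protein of motile cells, had 26.4, 42.4 and 54.8 CPM in LoVo and 175 to 513 CPM (median 273) in the others (-2.76 ± 0.34, adjusted p = 3.87e-05). MMP7, the matrix metalloprotease matrilysin, had 0.0545, 0.266 and 0 CPM in LoVo, 0.708 to 4.33 in LS1034, 0.824 to 2.17 in HCT116 and 277 to 478 in HT-29. Both genes separated LoVo from all 9 libraries. MET, the receptor of hepatocyte growth factor, had 724, 619 and 391 CPM in LoVo against 169 to 815 CPM (median 463) and did not pass the test (adjusted p = 0.366). CXCR4, a chemokine receptor, had 22.6, 3.77 and 27.8 CPM in LoVo and was called against the mean, but HT-29 had 9.1 to 52.8.

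Of 24 tested genes described as suppressing metastasis, 4 were higher and 6 lower than the mean (41.7% called, beside 21.0%, median -0.33). SERPINB5, the serpin maspin, had 747, 644 and 613 CPM in LoVo and 40.4 to 92 CPM (median 64.1) in the others, 8.55-fold above HT-29 (3.33 ± 0.22, adjusted p = 1.49e-07). CADM1, a cell adhesion molecule of the immunoglobulin family, had 10.2, 12.7 and 7.24 CPM against 0 to 1.31 CPM (median 0.16). In both genes every LoVo library was above every other. ARHGDIB, an inhibitor of small GTPase activation, and KISS1R, the kisspeptin receptor, were lower than each line, at 0.163, 0.647 and 0 and 0.0272, 0.038 and 0 CPM, and ARHGDIB overlapped HCT116, which had 0.428 to 2.7. Calls were lost when single libraries were left out, with the largest adjusted p of the 3 comparisons given here and below: CADM1, without LS1034 replicate 1 (adjusted p = 0.0516); ARHGDIB, without LoVo replicate 1 or 3, LS1034 replicate 3, HT-29 replicate 1, 2 or 3 or HCT116 replicate 2 or 3 (adjusted p 0.0506 to 0.192); and KISS1R, without LoVo replicate 1, 2 or 3, LS1034 replicate 1 or 3, HT-29 replicate 2 or 3 or HCT116 replicate 1, 2 or 3 (adjusted p 0.0505 to 0.277).

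**Figure D3:**
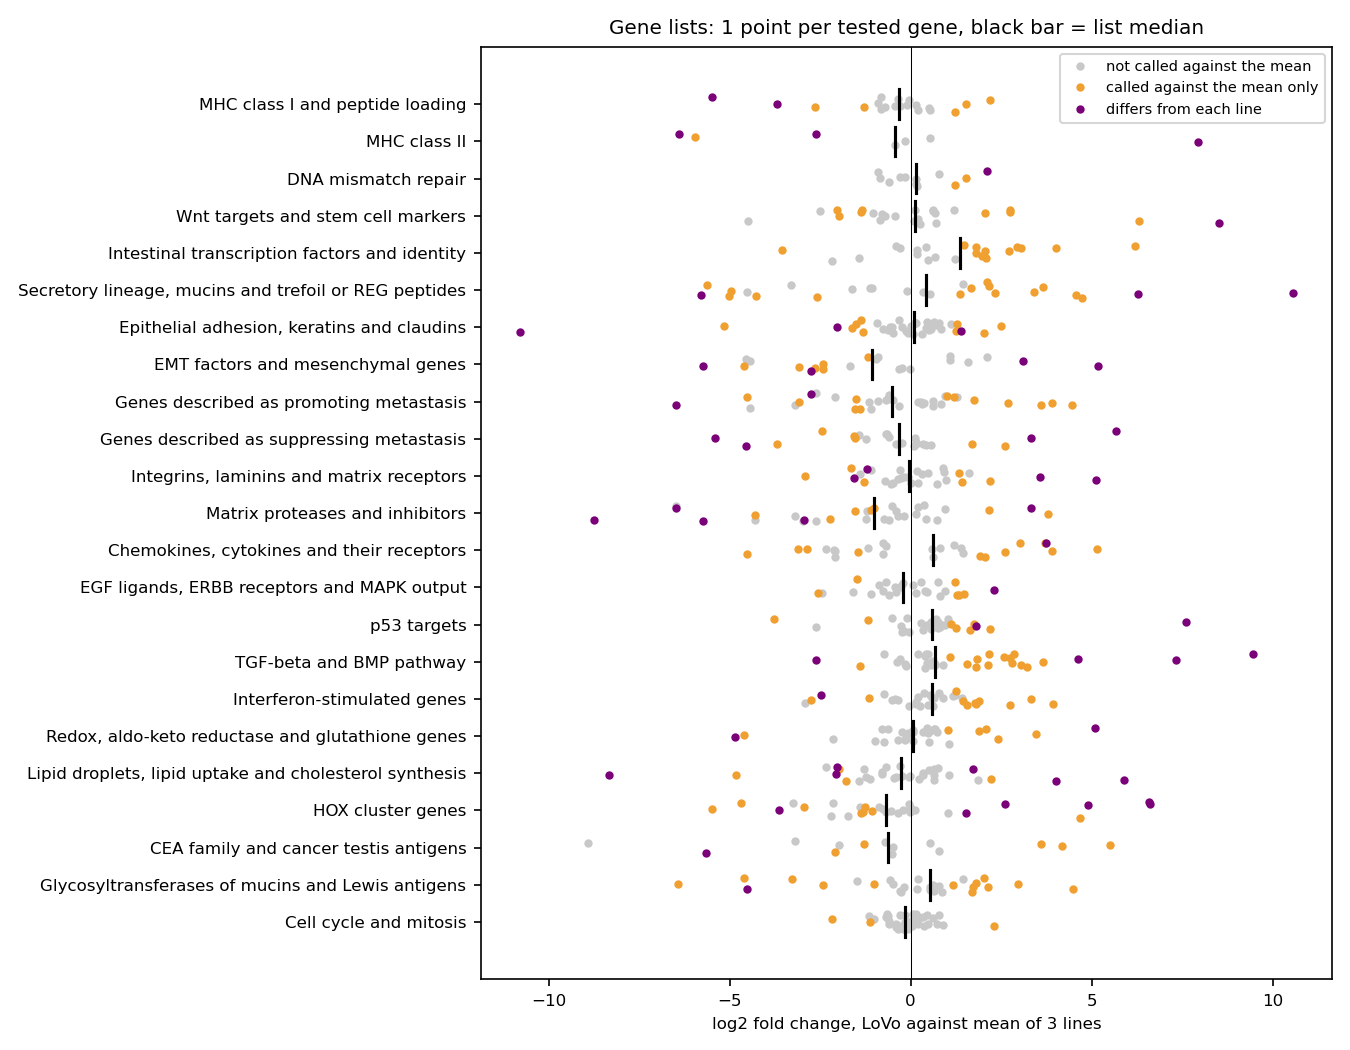
Log2 fold change of each tested gene, LoVo against the mean of the 3 other lines (x axis), by gene list (y axis); the black bar is the median of the list. Purple points differ from each line, orange points are called against the mean only, and grey points are not called.

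In the mesenchymal list, 2 of 22 tested genes were higher and 8 lower than the mean (45.5% called, beside 21.0%, median -1.07). CDH11, a cadherin of mesenchymal cells, had 9.26, 3.46 and 9.09 CPM in LoVo against 0 to 0.90 CPM (median 0.136), and ACTA2, smooth muscle actin, had 6.08, 13 and 13.9 against 0.50 to 3.44 CPM (median 1.26). Both were above every other cancer library and far below CCD841CoN, which had 137 ± 6.02 and 1503 ± 109 CPM (SD, n = 3). VIM, the mesenchymal intermediate filament, had 0.545, 0.951 and 0.847 CPM in LoVo and 0.289 to 6.15 CPM (median 0.929) elsewhere, and ZEB1, a repressor of epithelial genes, had 0.627, 0.342 and 0.77 against 0.102 to 8.14 CPM (median 0.52); neither passed the test (adjusted p = 0.257 and 0.345). Single libraries decided 2 calls: CDH11, without LoVo replicate 1 or LS1034 replicate 1 (adjusted p 0.0682 to 0.0808), and ACTA2, without HCT116 replicate 2 (adjusted p = 0.0531).

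Of 38 tested genes of epithelial adhesion and keratins, 5 were higher and 7 lower than the mean (31.6% called, beside 21.0% of all tested genes, median 0.09). KRT23, an acidic keratin, had 0, 0.038 and 0 CPM in LoVo, 1 count in all, against 6.95 to 234 CPM (median 21). OCLN, occludin of tight junctions, was higher at 156, 162 and 143 CPM against 39.98 to 85.9 CPM (median 61.5) (1.38 ± 0.23, adjusted p = 0.000487). ESRP1, a splicing regulator of epithelial cells, was lower at 68.3, 18.2 and 42.2 CPM against 93.9 to 268 CPM (median 193). CDH1, the epithelial cadherin, had 414, 228 and 437 CPM in LoVo, inside the range of the others at 50.9 to 1034 CPM (median 519). The call for 1 gene rested on a library: ESRP1, without HCT116 replicate 1 (adjusted p = 0.0621). The OCLN call was lost in the test against a 2-fold change (glmTreat, largest adjusted p = 0.303).

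Among matrix proteases and their inhibitors, 3 of 31 tested genes were higher and 9 lower than the mean (38.7% called, beside 21.0%, median -1.01). The genes lower than each line included MMP7 and PRSS8, given above, and ADAM19, a metalloprotease that sheds growth factors, at 4.58, 7.8 and 4.16 CPM against 10.1 to 124 CPM (median 33.2). Among integrins, laminins and matrix receptors, 5 of 30 were higher and 5 lower (33.3% called, median -0.03). LAMA4, a laminin chain of vessel and muscle basement membrane, had 22, 16.1 and 23.4 CPM against 0 to 1.6 CPM (median 0.64), and NID2, which links laminin to collagen, had 9.59, 28.7 and 4.85 against 0.571 to 1.83 CPM (median 1.36). Both were higher in each LoVo library than in any other cancer library. ITGB1, the common beta chain of many integrins, was lower at 369, 191 and 223 CPM against 395 to 976 CPM (median 632), and SDC4, a heparan sulfate proteoglycan, at 38.9, 47.9 and 56 against 90.1 to 211 CPM (median 125). Calls were lost as follows: ADAM19, without LoVo replicate 1 or 3 or HT-29 replicate 2 (adjusted p 0.0807 to 0.134); ITGB1, without LoVo replicate 2 or 3, LS1034 replicate 1 or 3, HT-29 replicate 2 or 3 or HCT116 replicate 1 (adjusted p 0.0533 to 0.132); and SDC4 with glmTreat (adjusted p = 0.157).

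LGR5, the receptor for R-spondins that marks crypt stem cells, was the 1 gene of 25 Wnt targets and stem cell markers that differed from each line. It had 814, 568 and 405 CPM in LoVo, 16.8 to 40.4 in LS1034, 0.409 to 3.04 in HT-29 and 0 to 0.183 in HCT116 (8.51 ± 0.46, adjusted p = 5.12e-08). LoVo was 21.8-fold above LS1034, and no line overlapped it. Other genes of the list did not share that order: ASCL2, a stem cell transcription factor, had 2.13, 1.94 and 3.39 CPM in LoVo and 173 to 316 in LS1034, and AXIN2, a feedback inhibitor of the pathway, had 69.99, 66.2 and 62.7 and 115 to 217. Over the list, 5 genes were higher and 4 lower than the mean (36.0% called, beside 21.0%, median 0.12).

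None of 22 tested genes of intestinal identity differed from each line. Against the mean, 11 were higher and 1 lower (54.5% called, beside 21.0%, median 1.35). Against HCT116 alone, 20 were higher and none lower, against HT-29 6 and 5, and against LS1034 1 and 9. CDX2, the homeobox factor of intestinal epithelium, had 44.1, 83.9 and 93.3 CPM in LoVo, 92.9 to 167 in LS1034, 2.0 to 6.54 in HT-29 and 9.48 to 14.6 in HCT116. CDH17, liver-intestine cadherin, had 875, 514 and 968 CPM in LoVo, 931 to 2117 in LS1034, 3.84 to 5.21 in HT-29 and 0 to 0.458 in HCT116. HNF4A, a nuclear receptor of gut and liver, had 95.2, 179 and 85 CPM in LoVo and 84.3 to 176 in LS1034. In these 3 genes LoVo and LS1034 were not called apart.

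Among secretory genes, 11 of 26 were higher and 6 lower than the mean (65.4% called, beside 21.0%, median 0.44). More were higher than lower only against HCT116, with 13 and 1. Against LS1034 7 were higher and 10 lower, and against HT-29 4 and 11. REG4, a lectin-like peptide of enteroendocrine and goblet cells, had 1317, 1397 and 2120.1 CPM in LoVo, 69.8 to 118 in HT-29, and at most 0.245 CPM in any library of LS1034 or HCT116 (10.57 ± 0.35, adjusted p = 4.08e-10). SPINK4, a protease inhibitor of goblet cells, had 9.94, 21.1 and 25.3 CPM against 0 to 1.0 CPM (median 0.654). Every LoVo library was above the others for both. FOXA3, a forkhead factor of secretory and liver cells, was lower at 0.109, 0.228 and 0 CPM against 3.09 to 12 CPM (median 7.93). MUC2, the gel-forming mucin of goblet cells, had 13.5, 29 and 10.6 CPM in LoVo against 0 to 9.6 CPM (median 1.49) without overlap, but its adjusted p against HT-29 was 0.0625.

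A run of neighbouring genes held further protease inhibitors. On chromosome 5, SPINK5, SPINK6, MARCOL, SPINK13 and SPINK7 are consecutive among the tested genes, and all 5 were higher in LoVo than in each line. SPINK5, which encodes the skin protease inhibitor LEKTI, had 76.3, 134 and 107 CPM in LoVo and 0 to 6.11 CPM (median 0.347) in the others. SPINK13 had 9.92, 6.05 and 6.78 against 0 to 0.75 CPM (median 0.0818), and SPINK7 had 6.89, 19.7 and 16.3 against 0 to 0.315 CPM (median 0). MARCOL had 11.4, 7.49 and 10.6 CPM in LoVo and no count in the 9 others, at least 235-fold above the level of 3 counts over the LS1034 libraries. CCD841CoN had no count of any of the 5. Each of the 5 kept its calls in all 20 alternatives.

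There were 5 runs of at least 3 consecutive tested genes higher in LoVo, 17 genes in all, with the order taken from RefSeq. The others were SULT1E1, ODAM and FDCSP on chromosome 4; ADCY1, IGFBP1 and IGFBP3 on chromosome 7; and MFAP5, RIMKLB and A2ML1, and PLXNC1, CEP83 and TMCC3, on chromosome 12. IGFBP1 and IGFBP3, which bind insulin-like growth factors, had 44.4, 1.26 and 29.96 and 13.7, 2.43 and 27.7 CPM in LoVo, low in replicate 2 in both, against 0 to 1.42 CPM (median 0.0714) and 0 to 2.08 CPM (median 0.183). IGFBP1 thus overlapped the other lines. Calls were lost for some of these genes: IGFBP1, without LS1034 replicate 1 (adjusted p = 0.0501); IGFBP3, without LoVo replicate 1 or 3 or HCT116 replicate 1 or 2 (adjusted p 0.0653 to 0.127); A2ML1, without LoVo replicate 1, 2 or 3, LS1034 replicate 1 or 3 or HCT116 replicate 1 or 3 (adjusted p 0.0547 to 0.12); PLXNC1, without LoVo replicate 1 or 2, LS1034 replicate 1 or 3, HT-29 replicate 1 or HCT116 replicate 1 or 3 (adjusted p 0.0516 to 0.148); and CEP83, without LoVo replicate 1 or 3, LS1034 replicate 1, 2 or 3, HT-29 replicate 1 or HCT116 replicate 2 or 3 (adjusted p 0.0614 to 0.22).

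All 5 runs of at least 3 consecutive genes lower in LoVo lay on chromosome 19 and consisted of zinc finger genes, 20 in all. Zinc finger genes of this kind mostly encode DNA-binding repressors that silence transposable elements, and they sit in clusters of related copies. By symbol, 40 of 453 tested zinc finger genes were lower in LoVo than each line (8.83%), beside 2.13% of all tested genes, and 8 were higher. On chromosome 19 the lower ones were 37 of 200 zinc finger genes (18.5%) and 24 of 798 other genes (3.01%), and on the other chromosomes 3 of 253 zinc finger genes (1.19%). The median log2 fold change over the 453 genes was 0.09, beside 0.03 over all tested genes. This grouping was made after the values had been seen, and the counts are a description.

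**Figure D4:**
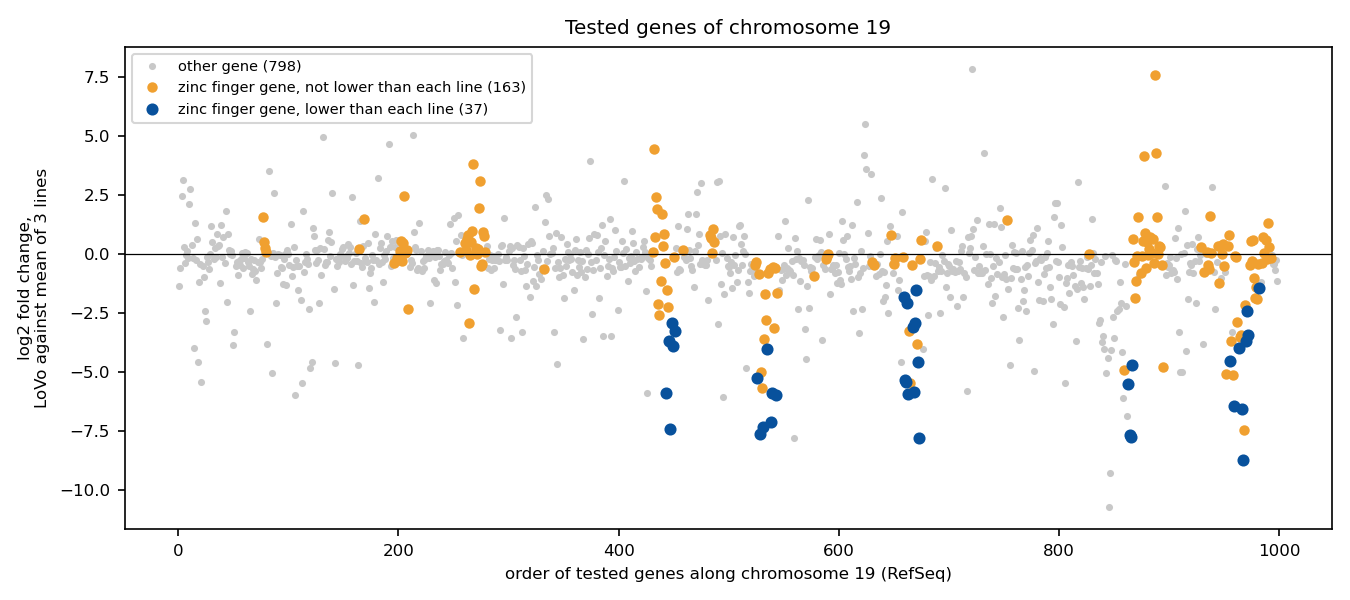
Log2 fold change of each tested gene of chromosome 19, LoVo against the mean of the 3 other lines (y axis), in the order of the genes along the chromosome (x axis). Blue points are the 37 zinc finger genes lower than each line, orange points the other 163 zinc finger genes and grey points the other genes.

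Single genes of these runs were nearly unread in LoVo. ZNF613 had 0.0545, 0 and 0 CPM in LoVo, 2 counts in all, against 3.12 to 13.4 CPM (median 5.84) in the other lines, and CCD841CoN had 8.1 ± 0.364 (SD, n = 3). ZNF649 had 0, 0.038 and 0 CPM against 1.8 to 7.34 CPM (median 4.6), and ZNF577 had 0, 0.114 and 0 against 0.708 to 4.24 CPM (median 2.4). ZNF222 had 0.0272, 0.114 and 0 CPM against 1.9 to 6.27 CPM (median 3.27), and its neighbours ZNF221 and ZNF155 had 3 counts each in LoVo. All of these genes separated LoVo from the 9 others. ZNF45, in the same run, was lower by less, with 6.89, 6.09 and 4.62 CPM against 13.9 to 26.6 CPM (median 21.4) (-1.82 ± 0.32, adjusted p = 0.000741). Zinc finger genes are near copies of each other, and reads that match several of them make their counts uncertain. Calls were lost for 5 of the 20 when single libraries were left out: ZNF91, without LoVo replicate 2 or 3 or HT-29 replicate 1 (adjusted p 0.0534 to 0.0741); ZNF675, without LoVo replicate 1 or HT-29 replicate 1 (adjusted p 0.06 to 0.114); ZNF230, without LoVo replicate 2 or 3, HT-29 replicate 1 or HCT116 replicate 1 (adjusted p 0.0502 to 0.0604); ZNF227, without LoVo replicate 2 or HCT116 replicate 1 (adjusted p 0.0528 to 0.0564); and ZNF154, without LoVo replicate 1 or 3, LS1034 replicate 1, 2 or 3, HT-29 replicate 1 or 2 or HCT116 replicate 2 or 3 (adjusted p 0.0545 to 0.137).

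The promoters of 3 genes from the higher run on chromosome 5 and of 3 from the lower runs on chromosome 19 are printed because neighbouring genes moved together there, and they were picked after the values had been seen. Each is 300 bases from RefSeq, build GRCh38.p14, from 250 before to 50 after the annotated start, 5′ to 3′ along the gene, with CG dinucleotides in capitals. The SPINK5 promoter lies at chr5:148063730-148064029, plus strand, SPINK13 at chr5:148268544-148268843, plus strand and SPINK7 at chr5:148312173-148312472, plus strand. The ZNF222 promoter lies at chr19:44025129-44025428, plus strand, ZNF613 at chr19:51927222-51927521, plus strand and ZNF577 at chr19:51887902-51888201, minus strand.
SPINK5: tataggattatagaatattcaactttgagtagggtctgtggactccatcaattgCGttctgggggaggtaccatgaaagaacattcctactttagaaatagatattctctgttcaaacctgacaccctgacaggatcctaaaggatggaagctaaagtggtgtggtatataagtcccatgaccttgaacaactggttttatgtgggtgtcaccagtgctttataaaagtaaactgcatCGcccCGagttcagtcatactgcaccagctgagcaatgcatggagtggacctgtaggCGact
SPINK13: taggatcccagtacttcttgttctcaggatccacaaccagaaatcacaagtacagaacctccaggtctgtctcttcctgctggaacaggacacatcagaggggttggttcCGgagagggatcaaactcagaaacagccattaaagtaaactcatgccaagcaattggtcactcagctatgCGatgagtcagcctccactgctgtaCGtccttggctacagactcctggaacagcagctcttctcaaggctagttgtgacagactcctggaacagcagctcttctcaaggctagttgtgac
SPINK7: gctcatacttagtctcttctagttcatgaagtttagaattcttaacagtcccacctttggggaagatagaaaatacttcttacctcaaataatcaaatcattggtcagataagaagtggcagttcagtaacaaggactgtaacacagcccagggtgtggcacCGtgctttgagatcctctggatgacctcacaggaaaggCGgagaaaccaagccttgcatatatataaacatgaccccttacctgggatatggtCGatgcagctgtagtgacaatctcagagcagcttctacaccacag
ZNF222: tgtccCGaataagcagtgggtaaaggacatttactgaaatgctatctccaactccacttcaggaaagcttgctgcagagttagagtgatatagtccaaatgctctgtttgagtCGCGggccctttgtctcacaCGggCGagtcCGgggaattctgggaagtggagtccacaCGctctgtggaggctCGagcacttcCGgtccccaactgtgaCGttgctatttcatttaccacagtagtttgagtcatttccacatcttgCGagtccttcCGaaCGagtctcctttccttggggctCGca
ZNF613: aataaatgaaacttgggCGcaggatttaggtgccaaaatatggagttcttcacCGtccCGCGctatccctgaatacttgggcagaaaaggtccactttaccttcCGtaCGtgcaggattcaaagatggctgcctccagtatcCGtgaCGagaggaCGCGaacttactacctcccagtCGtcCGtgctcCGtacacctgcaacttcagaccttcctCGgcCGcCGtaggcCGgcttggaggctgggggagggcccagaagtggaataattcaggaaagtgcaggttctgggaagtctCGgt
ZNF577: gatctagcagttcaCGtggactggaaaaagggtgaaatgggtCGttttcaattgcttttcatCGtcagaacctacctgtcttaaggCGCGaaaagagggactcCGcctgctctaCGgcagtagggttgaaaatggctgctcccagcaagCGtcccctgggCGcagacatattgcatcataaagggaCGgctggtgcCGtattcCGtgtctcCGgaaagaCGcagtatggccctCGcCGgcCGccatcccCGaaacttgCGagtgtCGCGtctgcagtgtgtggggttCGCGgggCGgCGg
The letters CG, the same on both strands, occur 4 times in SPINK5, 3 times in SPINK13 and 3 times in SPINK7, and 14 times in ZNF222, 18 times in ZNF613 and 25 times in ZNF577. The median over 27305 such promoters in the table is 14, 30.5% hold 4 or fewer, and 95.8% hold at least 1. These letters describe the sequence, and methylation was not measured here.

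Among the autosomes and X, the higher genes were most frequent on chromosome 5, with 33 of 617 tested genes (5.35%, beside 2.28% of all tested genes). Next was chromosome 18, with 8 of 192 (4.17%). The lower genes were most frequent on chromosome 19, with 61 of 998 (6.11%, beside 2.13% of all tested genes). Next was chromosome 20, with 16 of 374 (4.28%). On the X chromosome 2 of 448 tested genes were higher (0.446%) and 18 lower (4.02%). The chromosome 5 genes included OCLN and the SPINK run, given above, and MSH3 and CCNG1, given below.

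In the class I list, B2M and HLA-C differed from each line and both were lower. B2M, the light chain of all class I molecules, had 188, 70.6 and 272 CPM in LoVo, 4462 to 8615 in LS1034, 1283 to 2274 in HT-29 and 592 to 1285 in HCT116 (-3.69 ± 0.46, adjusted p = 4.76e-05). LoVo was 5.1-fold below HCT116, the closest line, with no overlap. HLA-C, a class I heavy chain, had 0.136, 0.0761 and 0.539 CPM against 3.4 to 35 CPM (median 6.95), whereas HLA-B had 7.41, 10.2 and 5.55 CPM against 0.183 to 27.8 CPM (median 4.82) and did not pass the test. HLA genes vary so much between people that reads of some alleles may not be counted, so differences between lines in them are uncertain. Over the 20 tested class I and peptide loading genes, 3 were higher and 4 lower than the mean (35.0% called, beside 21.0%, median -0.33). Against LS1034 0 were higher and 12 lower, against HT-29 3 and 7, and against HCT116 5 and 2. In the class II list, 1 of 7 was higher and 3 lower (57.1% called, median -0.44). HLA-DQB1 had 1.09, 1.41 and 1.31 CPM in LoVo and no count in the 9 others, at least 30.4-fold above the level of 3 counts over the LS1034 libraries. HLA-DMA and HLA-DMB, which load class II molecules, were lower, at 0.272, 0.533 and 0.308 CPM and at no count, and their calls were lost in some fits: HLA-DMA, without LoVo replicate 1 or 3, LS1034 replicate 1 or HCT116 replicate 1 or 3 (adjusted p 0.0522 to 0.102); and HLA-DMB, without LoVo replicate 1, 2 or 3, LS1034 replicate 1 or 3, HT-29 replicate 1, 2 or 3 or HCT116 replicate 1, 2 or 3 (adjusted p 0.052 to 0.217).

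In the mismatch repair list, 3 of 12 genes were called, all 3 higher than the mean (median 0.15), a share near the 21.0% of all tested genes. MSH3, a mismatch repair protein that recognises larger loops, was higher than each line at 138, 69.2 and 75.3 CPM against 4.39 to 50.9 CPM (median 36.5). That call was lost with the replicate number as a block, where a fold change fell under the limit while the largest adjusted p was 0.00324, and in single fits: MSH3, without LoVo replicate 1, LS1034 replicate 2 or 3 or HT-29 replicate 1, 2 or 3 (adjusted p 0.0583 to 0.194).

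In the TGF-beta and BMP list, 16 of 36 tested genes were higher and 2 lower than the mean (50.0% called, beside 21.0% of all tested genes, median 0.67). BMPR1B, a type I BMP receptor, had 59.8, 30.3 and 23.4 CPM in LoVo against 0 to 0.818 CPM (median 0.202) (7.34 ± 0.68, adjusted p = 3.47e-06). GREM1, a secreted BMP antagonist, had 2.37, 8.79 and 3.93 against 0 to 1.31 CPM (median 0.157), and LTBP3, which holds latent TGF-beta in the matrix, was lower at 6.62, 8.67 and 8.32 against 22.9 to 108 CPM (median 52.5). INHBA, given above, was the other gene higher than each line. SMAD4, the shared signal transducer, had 201, 108 and 77.9 CPM in LoVo, 69.1 to 102 in LS1034, 4.4 to 14.3 in HT-29 and 81.9 to 167 in HCT116. It was called higher against the mean (1.56 ± 0.33, adjusted p = 0.00318), but HT-29 was the only line that did not overlap LoVo, and without LoVo replicate 1 the adjusted p was 0.0517. The LTBP3 call was lost with glmTreat (adjusted p = 0.0551), and the GREM1 call was fragile: GREM1, without LoVo replicate 1, 2 or 3, LS1034 replicate 1, 2 or 3, HT-29 replicate 2 or HCT116 replicate 2 or 3 (adjusted p 0.0514 to 0.212).

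Of 31 tested p53 targets, 7 were higher and 2 lower than the mean (9 of 31 called, beside 21.0% of all tested genes, median 0.58). SPATA18, a mitochondrial quality control protein, had 33.2, 24.8 and 9.71 CPM in LoVo against 0 to 0.367 CPM (median 0.0714), and CCNG1, cyclin G1, had 1303, 649 and 485 against 139 to 462 CPM (median 213). In the EGF and MAPK list, 5 of 27 were higher and 2 lower (25.9% called, median -0.20), and BTC, the EGF receptor ligand betacellulin, differed from each line at 60.2, 14.8 and 57.8 CPM against 4.01 to 14.2 CPM (median 8.46). In all 3 genes every LoVo library was above every other. IL1R2, the decoy receptor of interleukin-1, had 40.7, 66.2 and 61.8 CPM against 0.271 to 23.1 CPM (median 8.89), in a list of 26 cytokines and receptors with 8 higher and 4 lower (46.2% called, median 0.61). Calls were lost as follows: CCNG1, without LoVo replicate 1 or HCT116 replicate 2 or 3 (adjusted p 0.0723 to 0.0929); BTC, without LoVo replicate 1, LS1034 replicate 2 or HCT116 replicate 2 (adjusted p 0.0505 to 0.0537); and IL1R2 with glmTreat (adjusted p = 0.115).

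Of 33 interferon-stimulated genes, 9 were higher and 3 lower than the mean (36.4% called, beside 21.0%, median 0.59). The lines differed in this: 14 were higher and 1 lower against HCT116. Against LS1034 3 were higher and 6 lower, and against HT-29 1 and 3. Only IFITM2, which blocks the entry of viruses, differed from each line, and it was lower, at 11.3, 13.8 and 26 CPM against 67.8 to 132 CPM (median 88.5) (-2.48 ± 0.33, adjusted p = 7.63e-05). Among 31 redox genes, 6 were higher and 2 lower (25.8% called, median 0.07). NQO1, a quinone reductase, had 30.6, 19.7 and 39.4 CPM in LoVo against 417 to 1403 CPM (median 835), 23.2-fold below HCT116 (-4.85 ± 0.36, adjusted p = 4.97e-07). GSTM3, a glutathione transferase, was higher at 5.83, 8.06 and 12 CPM against 0 to 1.1 CPM (median 0.275). None of the 3 genes overlapped between LoVo and the others.

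Among lipid genes, 4 of 34 were higher and 6 lower than the mean (29.4% called, beside 21.0%, median -0.28). CD36, which takes up fatty acids, had 8.77, 6.16 and 7.7 CPM in LoVo against 0 to 0.857 CPM (median 0.572). PPARG, the nuclear receptor of fat storage, had 323, 185 and 403 CPM against 27.5 to 156 CPM (median 129). On the lower side, PLIN3, a coat protein of lipid droplets like PLIN2, had 15.3, 40.9 and 42.5 CPM against 75.7 to 358 CPM (median 132), and SCD, which makes monounsaturated fatty acids, 149, 368 and 86.7 against 325 to 1402 CPM (median 849). SCD overlapped, in LoVo replicate 2. CD36 and PLIN2 kept their calls without any single library, and the others described here did not: PPARG, without LoVo replicate 1 or 3, LS1034 replicate 1 or 3 or HT-29 replicate 1 or 2 (adjusted p 0.0505 to 0.0886); PLIN3, without LoVo replicate 1 or HT-29 replicate 3 (adjusted p 0.0643 to 0.0728); and SCD, without LoVo replicate 1 or 3 or LS1034 replicate 1 or 2 (adjusted p 0.0847 to 0.118).

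HOX genes, which record position along the body axis, had 5 of 31 tested members higher and 1 lower than each line, beside 2.28% and 2.13% of all tested genes, and 3 of the 5 were lost in several fits that leave out a library. HOXA13, a gene of the hindgut end of its cluster, had 248, 239 and 174 CPM in LoVo against 10.1 to 99.7 CPM (median 46.7), and HOXD13 had 14.9, 13.6 and 17.8 against 0 to 2.05 CPM (median 0.28). HOXB4, of the middle of its cluster, was lower at 0.354, 0.418 and 0.385 CPM against 1.43 to 11.6 CPM (median 4.2). Those 3 genes showed no overlap and kept their calls without any single library, but the HOXA13 call was lost in the test against a 2-fold change (glmTreat, largest adjusted p = 0.179). HOXB13, HOXD1 and HOXD8 were higher at 16.4, 24.5 and 33.7, at 1.93, 0.418 and 1.0 and at 30.1, 9.24 and 24.8 CPM. Over the 31 tested HOX genes, 6 were higher and 8 lower than the mean (45.2% called, beside 21.0%, median -0.69). The calls of the last 3 were fragile: HOXB13, without LoVo replicate 2 or 3, LS1034 replicate 1, 2 or 3, HT-29 replicate 1 or 2 or HCT116 replicate 1, 2 or 3 (adjusted p 0.0515 to 0.169); HOXD1, without LoVo replicate 1 or 3, LS1034 replicate 1 or HCT116 replicate 1 or 3 (adjusted p 0.052 to 0.147); and HOXD8, without LoVo replicate 1 or 3, LS1034 replicate 1 or 3 or HCT116 replicate 1, 2 or 3 (adjusted p 0.0519 to 0.157).

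In the list of 14 tested CEA family and cancer testis genes, 3 were higher and 3 lower than the mean (42.9% called, beside 21.0%, median -0.62), and MAGED1, given above, was the only gene that differed from each line. Among 29 glycosyltransferases of mucins and Lewis antigens, 8 were higher and 6 lower (48.3% called, median 0.53). ST3GAL6, which adds sialic acid to galactose, was lower than each line at 0.0545, 0.647 and 0 CPM against 0.787 to 32.6 CPM (median 5.83), and that call was lost in some fits: ST3GAL6, without LoVo replicate 1 or 3 or LS1034 replicate 1 or 2 (adjusted p 0.0528 to 0.0881). Of 36 cell cycle and mitosis genes, 1 was higher and 2 lower than the mean (8.33% called, beside 21.0%, median -0.16), and none differed from each line.

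The mixtures gave another reading of the same lines, in libraries the rule did not use. Their sample descriptions do not say whether the RNA mixed was that of the unmixed libraries, so they may be repeat measurements of it. There was 1 mixture library per line and dose, so these values have no replicates and no test, and a gene counted when LoVo was at least 1.5-fold above or below each of the 3 other mixtures on CPM plus 0.1. At 50% cancer RNA, 247 of the 317 higher genes were above in this sense, beside 5.37% of all tested genes, and 115 of the 295 lower genes were below, beside 3.50%. No higher gene was below and no lower gene above by that fold. With no fold limit, 22.8% of all tested genes were above all 3 other mixtures at 50% and 20.5% below all 3. Of the 317 higher genes, 309 were above all 3 (97.5%) and 0 below. Of the 295 lower genes, 205 were below all 3 (69.5%) and 9 above (3.05%). At 10%, 151 of 317 were above, beside 3.35%, and 48 of 295 were below, beside 2.08%. RAI2 was the 1 higher gene that was below by that fold at 10%, with 0.808 CPM in LoVo against 2.3 in LS1034, 2.43 in HT-29 and 2.03 in HCT116. With no fold limit at 10%, 23.7% of all tested genes were above all 3 other mixtures and 19.7% below all 3. Of the 317 higher genes, 246 were above all 3 (77.6%) and 10 below (3.15%). Of the 295 lower genes, 115 were below all 3 (39.0%) and 33 above (11.2%).

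**Figure D5:**
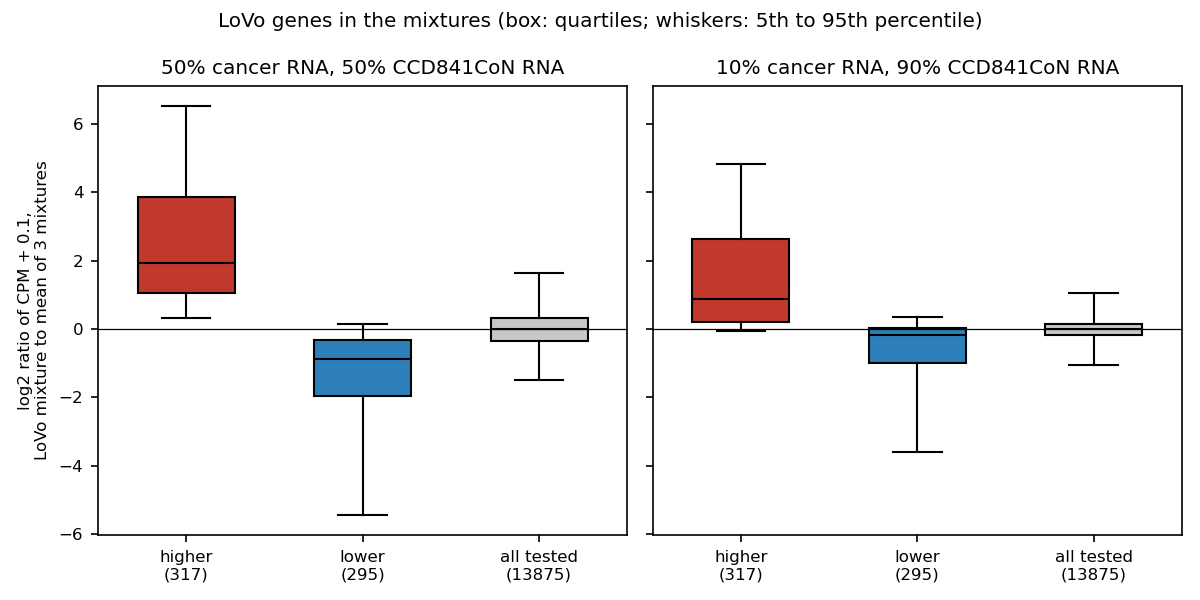
Log2 ratio of CPM plus 0.1, LoVo mixture to the mean log2 level of the 3 other mixtures (y axis), at 50% (left) and 10% (right) cancer RNA. Boxes hold the quartiles and whiskers the 5th to 95th percentile of the 317 higher genes, the 295 lower genes and all tested genes.

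The counts in the mixtures are also given by level in CCD841CoN, whose part in them was not tested. Of the lower genes, 50 of 75 with a mean under 1 CPM in CCD841CoN were below at 50% (66.7%), and 65 of the other 220 (29.5%). Of all tested genes, at any level in CCD841CoN, 3.50% were below. Of the higher genes, 138 of 143 with a mean under 1 CPM there were above (96.5%), and 109 of the other 174 (62.6%), beside 5.37% of all tested genes. CALB1 had 255 CPM in LoVo against 0.255 in LS1034, 0 in HT-29 and 0 in HCT116 at 50% and 46.7 CPM in LoVo against 0.363 in LS1034, 0 in HT-29 and 0 in HCT116 at 10%. REG4 had 941 CPM in LoVo against 0.0637 in LS1034, 44.7 in HT-29 and 0 in HCT116 at 50%, and LGR5 had 198 CPM in LoVo against 7.65 in LS1034, 0.0958 in HT-29 and 0 in HCT116. LoVo was the highest mixture for all 3. SERPINB5 had 69.96 CPM in LoVo against 8.53 in LS1034, 7.07 in HT-29 and 6.94 in HCT116 at 10%. BCAT1, with 218 ± 51.2 CPM in CCD841CoN (SD, n = 3), had 238 CPM in LoVo against 87.1 in LS1034, 79.4 in HT-29 and 99 in HCT116 at 50% and 232 CPM in LoVo against 195 in LS1034, 188 in HT-29 and 189 in HCT116 at 10%.

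On the lower side, KLK6 had 0 CPM in LoVo against 77.6 in LS1034, 196 in HT-29 and 24.6 in HCT116 at 50% and 0 CPM in LoVo against 15.2 in LS1034, 45.1 in HT-29 and 5.04 in HCT116 at 10%. KRT23 had 0 CPM in LoVo against 66.4 in LS1034, 2.63 in HT-29 and 10.5 in HCT116 at 50%, and MAOB 0 CPM in LoVo against 12.9 in LS1034, 6.65 in HT-29 and 30.4 in HCT116. LoVo was the lowest mixture for all 3, and CCD841CoN had at most 0.167 CPM of any of them on average. B2M, NQO1 and LGALS1, which CCD841CoN carries, were not below each other mixture by that fold: at 50%, B2M had 2309 CPM in LoVo against 5907 in LS1034, 3005 in HT-29 and 2410.4 in HCT116, NQO1 826 CPM in LoVo against 1404 in LS1034, 1101 in HT-29 and 1121 in HCT116 and LGALS1 1874 CPM in LoVo against 1626 in LS1034, 1556 in HT-29 and 1884 in HCT116.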

How the data were processed

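RNA-seq of ribosome-depleted total RNA (Roche KAPA stranded kit with RiboErase, per the labels' protocols) was read from 1 table of whole-number counts per gene. The authors made these counts with STAR and featureCounts on hg19, per the submitters' processing notes; versions and the strand setting are not given in the sources used here, so overlapping and antisense genes may share reads. All 31 columns matched a sample, and 0 were left over.

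The 12 unmixed cancer libraries were filtered with edgeR's filterByExpr, scaled by TMM and fitted with edgeR 4.0.16 (R 4.3.3) in a quasi-likelihood model with line as the only term. Each p-value was Benjamini-Hochberg adjusted over 13875 genes, and errors beside log2 fold changes are standard errors. A fold against a group without counts uses 3 counts over the group, and intervals cover counting error only. CPM of CCD841CoN and of each set of mixtures were scaled by TMM.

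Same-numbered libraries of different lines deviated together: the residual correlation was 0.167 to 0.559 in 18 such pairs and -0.48 to 0.0798 in 36 others, so the numbers pair the libraries although no label says why. Deviations were taken from the mean of each line. High values in same-numbered pairs therefore force lower ones in the others, which are no separate evidence. The stated fit has no block for the replicate number, and a fit with it is an alternative, as are 19 others.

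Named were the 15 genes per direction with the largest smallest log2 ratio of CPM plus 0.1. They had to be called in all 4 comparisons without overlap, at 10 CPM or more, and lie outside chromosome Y. Also named were members of 23 gene lists that differed from each line, and a few others chosen after their values were seen. A few genes that this rule names are not reported here. Comparison, members and lists were chosen with earlier results of these data known. RefSeq tables (GRCh38.p14) gave gene order for 13854 tested genes and the promoters. Steps were tested on simulated data.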

Additional observations from a re-analysis of the deposited data

How the results depend on the processing

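The 612 genes that differed from each line became 608 with DESeq2 size factors in edgeR, 599 with library size only, 575 without a filter on low counts, 702 with DESeq2, 667 with CCD841CoN in the fit, 658 by adjusted p alone and 472 to 614 when 1 library was left out, lowest without LoVo replicate 1. With the replicate block, which treats same-numbered libraries as paired, there were 747, of which 601 were among the 612. Testing against a 2-fold change (glmTreat) moved every count by over 1.5 times: 316 genes differed from each line, 1554 against the mean, 2003 against LS1034, 1934 against HT-29 and 1518 against HCT116.

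No alternative reversed the direction against the mean of any of 131 genes followed. Of the named genes that kept all 3 calls without any single library, glmTreat ended those of IL1R2, HOXA13, OCLN, LTBP3 and SDC4. Calls of named genes were also lost with library size only for ARHGDIB and KISS1R, with DESeq2 size factors for CEP83 and HOXB13, and with DESeq2 for A2ML1, HOXD1, IGFBP3 and ZNF154. Without the filter they were lost for CEP83, GREM1, HOXB13, HOXD1, HOXD8, KISS1R and ZNF154, and with CCD841CoN in the fit for KISS1R. The replicate block ended the call of MSH3 and of no other gene named here. Of the 612 genes, 144 of the higher and 151 of the lower kept all 3 calls in every alternative that gave them a value. Genes with a few counts in a line are limited by depth, and their folds are known only within the intervals given.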
